A study of Homo sapiens with 38 samples.

Results

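The 168 human endogenous retrovirus (HERV) entries described here are the rows of the endogenous retrovirus (ERV) class whose names begin with HERV or ERV. They are 168 of 1021 ERV rows and of 22549 features in a small RNA table of material released by DiFi cells, a human colorectal cancer line. All groups come from this 1 line, and every RNA sample went through AlkB, a demethylase that clears methyl groups at which reverse transcriptase would halt. Exomeres and supermeres are small particles without a membrane. They were isolated from the medium of a hollow-fibre bioreactor (3D) by size-exclusion chromatography (FPLC supermere and FPLC exomere, 4 libraries each). Ultracentrifugation (UC) of 3D medium gave supermeres, exomeres and small extracellular vesicles (sEV), with 3 libraries each. The same UC steps on serum-free medium of flat (2D) culture, conditioned for 48 h, also gave 3 libraries of supermere, exomere and sEV each. The sEV pellet was spun at 167000 g for 4 h, the exomere pellet at 167000 g for 16 h and the supermere pellet at 367000 g for 16 h. A cushion density gradient of 3D medium gave the pools of fractions 12, 9_10 and 6_7, with 4 libraries each, and the labels do not say which pool holds which kind of vesicle. The 2D medium came in 3 pools and the 3D medium in 4 pools, and the library letters A to D are not tied to them, and the spread that the p-values rest on is that between libraries, which may be technical.

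HERVs are the remains of retroviruses that entered the germ line of primate and older ancestors. A complete copy has an internal part, with the genes gag, pol and env, between a pair of long terminal repeats (LTRs), which carry the promoter. Class I copies resemble gammaretroviruses (HERV-H, HERV-E, HERV-W and HERV9), class II copies resemble betaretroviruses (HERV-K), and class III copies are the oldest and resemble spumaviruses (ERV-L). Many families are named by the amino acid of the tRNA that primes reverse transcription, H for histidine and K for lysine. HERV-H transcripts have been described in pluripotent stem cells and in colorectal tumours.

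An entry sums every locus with the same combination of parts, so HERVH_LTR7Y stands for HERV-H internal sequence with LTR7Y repeats. The 168 entries cover 14247 loci and 34.6 Mb of GRCh38, which is 11.8% of the length and 2.53% of the loci of the ERV class. By their names 114 entries join an internal part with an LTR, 46 are internal only, and 8 (such as ERV3-16A3_LTR) are LTR only, so not every entry is internal. A further 117 ERV rows carry HERV or ERV later in the name, LTR7_HERVH among them, and are not counted here as HERV. Against the GENCODE annotation, 9.26% of the HERV loci overlapped an exon, 29.4% lay in an intron and 61.3% lay between genes, while the rest of the ERV class had 3.47%, 41.2% and 55.3%. Of the HERV loci 46.5% overlapped a locus of another ERV row, and 50.0% of the HERV values above 0 were not whole. How the counting divided reads between copies or overlapping rows is not given in the sources used here, so a single entry is uncertain wherever its copies are alike or overlap other rows. Of the entries 72 were class I, 30 class II and 66 class III. The filter on low counts left 115 for the tests, of which 50 were class I, 18 class II and 47 class III.

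The level of an entry followed the summed length of its loci. Across the 168 entries, which share the same libraries, Spearman's rho between length and the mean CPM (a feature's counts scaled by the library total, in units of 1e-06) of the 11 groups was 0.935. Within single groups rho ran from 0.547 in 3D UC supermere to 0.927 in 2D UC exomere, and it was 0.624 in Gradient 6_7. Per length, the HERV entries had 19.5 CPM per Mb and the rest of the ERV class had 25.9 CPM per Mb, as means of the groups. The 10 highest entries held 45.6% of the summed HERV level, and 9 of them were class III. ERVL-E, the highest, had 80.0 CPM over 2863 loci and 3823.6 kb, and HERVL_MLT2A1 had 65.7 CPM over 3412.2 kb. ERV3-16A3_I had 39.6 CPM and 19.5 CPM per Mb. HERVH_LTR7Y was the only class I entry of the 10, at 23.6 CPM and 29.7 CPM per Mb. The remaining 6 were ERVL-B4, HERV16, ERVL-E_LTR16E2, ERVL-B4_MLT2B1, HERVL_MLT2A2 and ERVL-B4_MLT2B4, at 20.5, 20.0, 17.2, 14.2, 14.0 and 13 CPM, or 15.8 to 26.6 CPM per Mb.

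**Figure D1:**
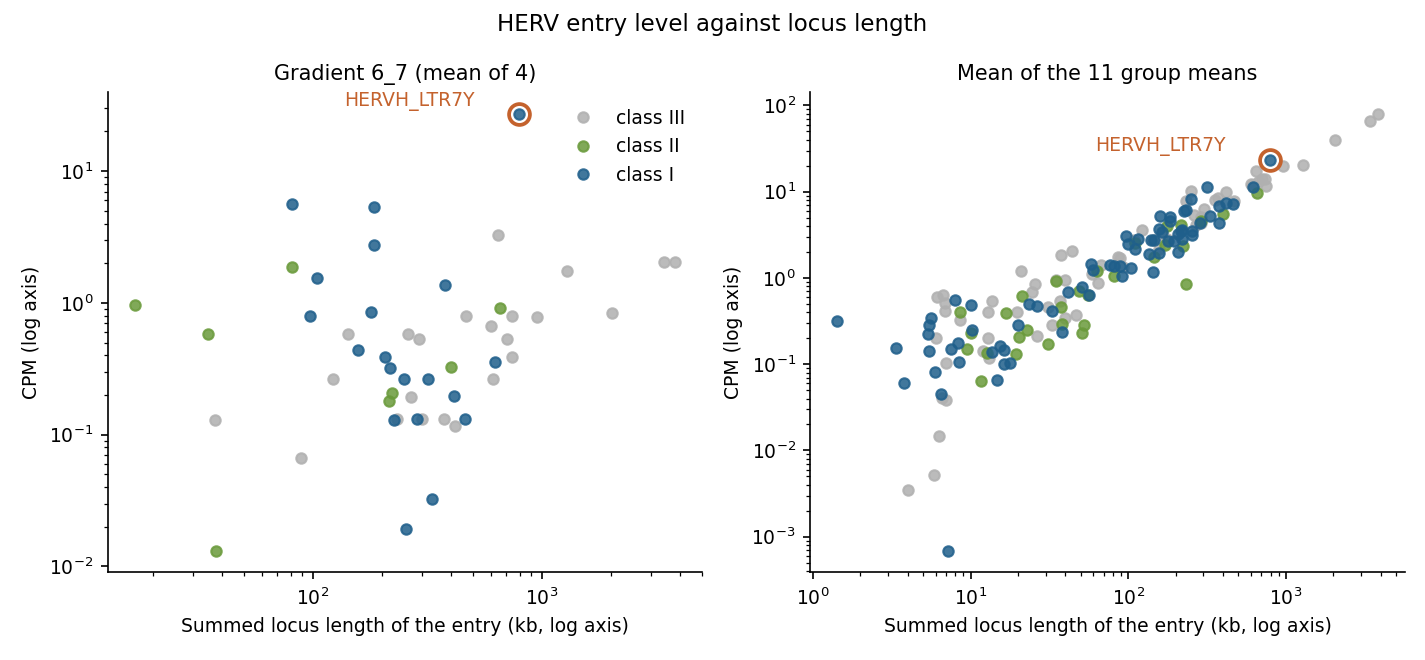
Each point is 1 HERV entry, placed by the summed length of its loci (kb, log axis) and its level (CPM, log axis), coloured by retroviral class, in Gradient 6_7 (left) and over the means of the 11 groups (right). Entries at 0 CPM are not drawn. HERVH_LTR7Y, ringed, stands at 27.2 CPM above all others in Gradient 6_7. Over all groups it has 23.6 CPM at 793.0 kb, above entries of like length. HERVL_MLT2B3 has 11.6 CPM at 744 kb, HERVL_MLT2A2 14.0 CPM at 741 kb and HERV16 20.0 CPM at 957 kb.

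HERV RNA fragments were most abundant in 2D exomere, Gradient 9_10 and 2D supermere, and least in FPLC supermere and Gradient 12. The summed HERV level was 9.31, 39.6, 22.7 and 100 CPM in FPLC supermere A to D, and 114, 640, 373 and 865 CPM in FPLC exomere A to D. In 3D UC it was 125 and 42.2 CPM in supermere B and C, 220, 179 and 154 CPM in exomere, and 104, 182 and 146 CPM in sEV. In 2D UC it was 1838.2, 2207.5 and 366 CPM in supermere, 3461.0, 2229.1 and 1231.3 CPM in exomere, and 538, 548 and 752 CPM in sEV. Supermere C was thus far below supermere A and B. In the gradient it was 46.2, 7.39, 42.6 and 51.2 CPM in pool 12, 2421.4, 3843.1, 927 and 681 CPM in pool 9_10, and 68.2, 38.1, 115 and 59.7 CPM in pool 6_7. The Gradient 9_10 libraries lay above every library of the other pools. The sum is given as a description, with no test.

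**Figure D2:**
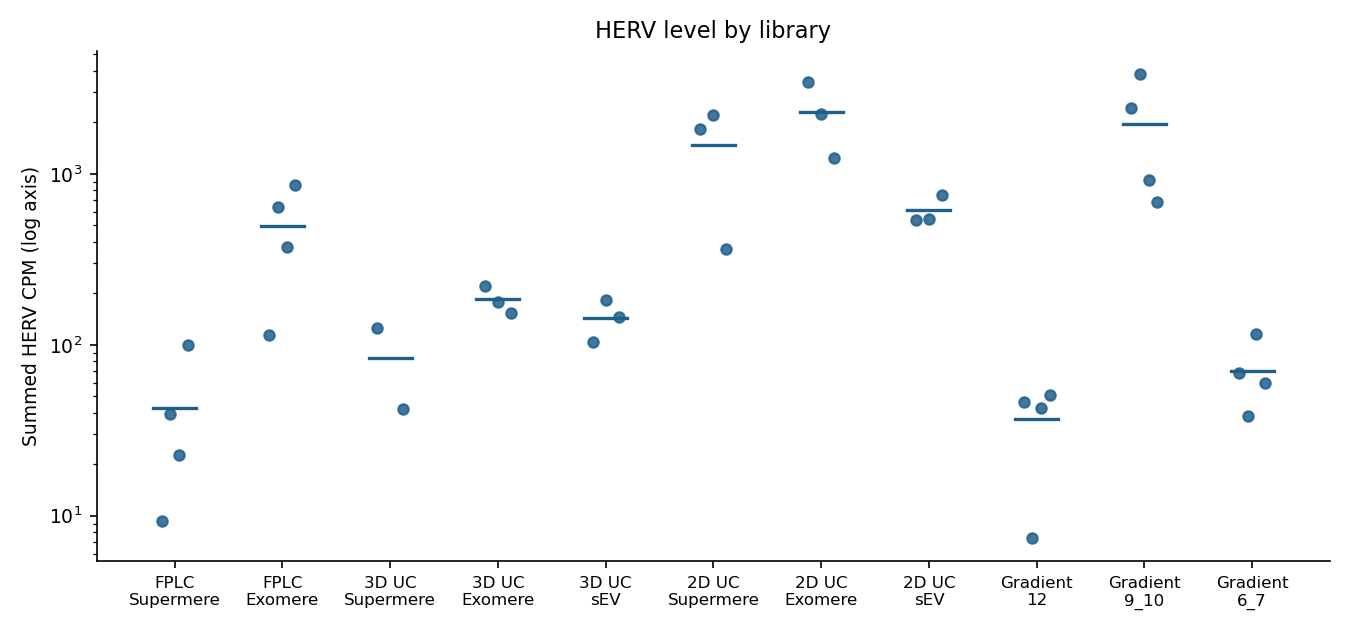
Summed level of the 168 HERV entries (CPM, log axis) in the 37 libraries with more than 10000 counts, by group. Points are libraries and bars are group means, from 36.8 CPM in Gradient 12 to 2307.1 CPM in 2D UC exomere.

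Total counts ran from 940808 to 16991360 in 33 libraries and from 81079 to 490374 in Gradient 9_10. HERV counts per library ran from 9.0 to 23344.4. Library A of 3D UC supermere held 46 counts and 0 HERV counts, so 3D UC supermere rests on 2 libraries throughout. A list of 5 miRNAs of intestinal epithelium averaged 171 to 69110.5 CPM over the groups, above 7 miRNAs of blood, endothelium and liver, which averaged 0.331 to 46.5 CPM. Other RNA classes set much of the totals: rRNA took 7.67 to 90.6% of counts in FPLC supermere libraries, and Y RNA averaged 87.0% in 3D UC supermere and 75.3% in 3D UC exomere, against 4.53% in 2D UC supermere and 9.33% in 2D UC exomere. Their part in the HERV levels was not tested.

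As a share of ERV counts, the HERV entries were nearly level across groups whose CPM differed by more than 10-fold. The share averaged 9.89% ± 2.63 (SD, n = 4) in FPLC supermere and 7.94% ± 2.04 (SD, n = 4) in FPLC exomere. In 3D UC it averaged 9.87% ± 3.48 (SD, n = 2) in supermere, 9.96% ± 1.19 (SD, n = 3) in exomere and 8.21% ± 0.266 (SD, n = 3) in sEV. In 2D UC it averaged 9.67% ± 0.885 in supermere, 9.15% ± 0.888 in exomere and 8.95% ± 0.0873 in sEV (SD, n = 3 each). Gradient 12 had 7.40% ± 0.537 and Gradient 9_10 had 9.44% ± 0.698 (SD, n = 4 each). These shares stand beside the 11.8% of ERV length that the entries cover. Gradient 6_7 was apart from these groups, at 19.8% ± 5.93 (SD, n = 4). Its 4 libraries had 19.8% (95% Wilson interval 15.8 to 24.4%), 12.3% (9.87 to 15.2%), 26.8% (23.2 to 30.6%) and 20.3% (18.1 to 22.8%). These shares rest on 64.2, 72.1, 148.1 and 230.5 HERV counts of 324.1, 586.4, 553.0 and 1133.5 ERV counts. The whole ERV class had 344, 310, 429 and 294 CPM in these libraries, so a high share there is not a high HERV level. Libraries A, C and D lay above every library of the other groups, of which the highest, 3D UC supermere C, had 12.3% (10.7 to 14.2%), and library B equalled it to 3 digits.

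**Figure D3:**
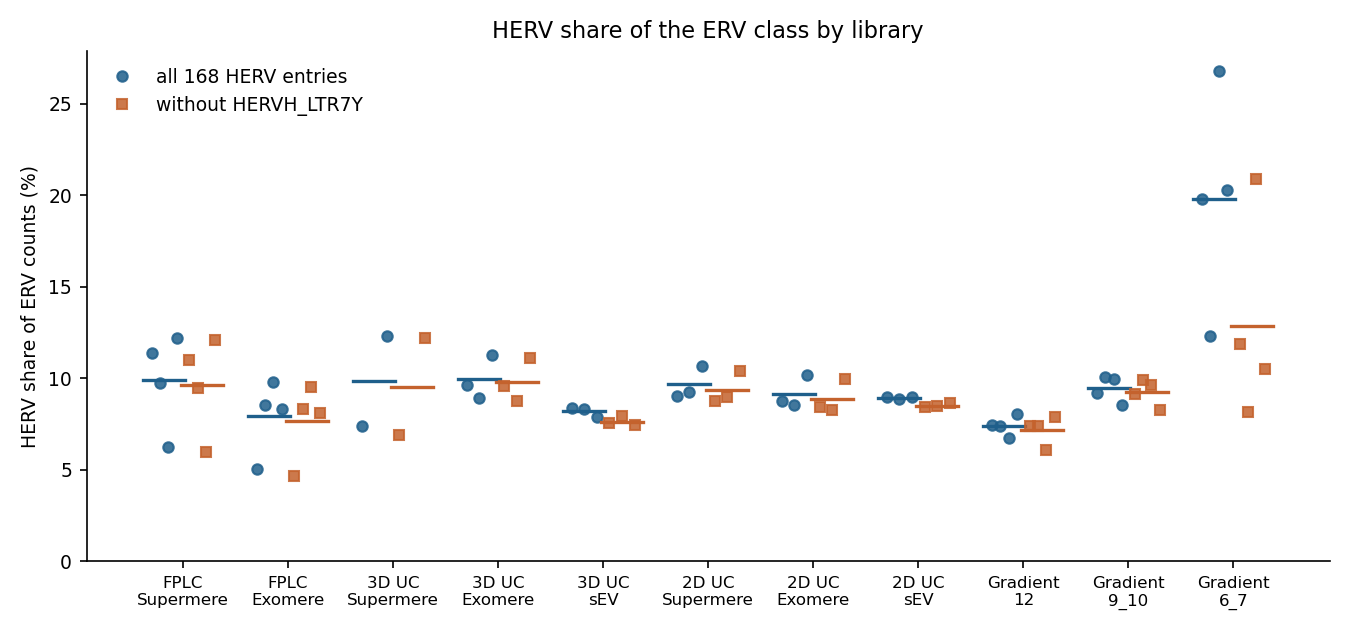
HERV share of ERV counts (%) in each library with more than 10000 counts, with all 168 entries (circles) and without HERVH_LTR7Y (squares). Bars are group means; Gradient 6_7 averages 19.8% with and 12.9% without that entry, and the other groups average 7.40 to 9.96% with it.

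HERVH_LTR7Y held a large part of the HERV counts in that pool. The entry has 98 loci on 22 chromosomes with 793.0 kb, of which 21 loci overlap an exon, 16 lie in introns and 61 lie between genes. In Gradient 6_7 it held 45.3% of HERV counts in library A (95% Wilson interval 33.7 to 57.4%), 36.3% in B (26.0 to 47.6%), 27.8% in C (21.1 to 35.4%) and 53.8% in D (47.2 to 60.0%). Elsewhere it averaged 1.85% in 3D UC exomere to 7.44% in 3D UC sEV. Per length its level in Gradient 6_7 was 34.3 CPM per Mb, 16.9 times that of the HERV entries as a whole. That ratio was 3.03 in 3D UC sEV and 2.27 in 2D UC sEV, and 0.784 to 2.59 in the other 8 groups. By CPM per Mb HERVH_LTR7Y ranked 3 among the tested HERV entries in Gradient 6_7, 3 in 2D UC sEV and 4 in 3D UC sEV. In the other groups its rank ran from 16 to 57. With this entry left out, the HERV share of ERV counts was 12.9% ± 5.56 (SD, n = 4) in Gradient 6_7, and library C alone still had 20.9% (17.6 to 24.6%).

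Library by library, HERVH_LTR7Y had 0.195, 0.0, 4.27 and 1.06 CPM in Gradient 12, 19.0, 70.3, 30.8 and 26.4 CPM in Gradient 9_10, and 30.9, 13.8, 31.9 and 32.1 CPM in Gradient 6_7. Gradient 12 lay below both other pools in every library, and the ranges of Gradient 9_10 and Gradient 6_7 overlapped. HERVH_LTR7Y fell in Gradient 12 against Gradient 6_7 (log2 fold change -4.17, SE 1.19, edgeR adjusted p = 0.00974). The fall also passed with TMM factors (adjusted p = 0.0154), in DESeq2 (adjusted p = 4.32e-05) and with each library scaled to its ERV counts (adjusted p = 0.000499), a scaling chosen after the data were seen. Without Gradient 12 A, B or D it missed the threshold, at adjusted p = 0.0657, 0.0699 and 0.0554. Gradient 9_10 did not pass against Gradient 6_7 on library totals (log2 fold change 0.35, SE 1.06, edgeR adjusted p = 0.961). On ERV counts it was lower in Gradient 9_10 (log2 fold change -5.32, edgeR adjusted p = 4.16e-05), and likewise in DESeq2 with its own size factors (log2 fold change -2.48, adjusted p = 5.18e-05). The scaling moved the whole table here: the all-feature median was 5.32 on library totals, 0.0 on ERV counts and 1.57 in DESeq2. On ERV counts 14.2% of all features were called lower. The Gradient 9_10 values rest on 24.6 counts in all and those of Gradient 6_7 on 220.4.

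In the other groups HERVH_LTR7Y had 0.301, 1.11, 1.06 and 1.35 CPM in FPLC supermere and 9.11, 17.8, 12.5 and 27.1 CPM in FPLC exomere. In 3D UC it had 9.22 and 0.701 CPM in supermere, 2.54, 4.48 and 2.89 CPM in exomere, and 11.1, 9.48 and 9.38 CPM in sEV. In 2D UC it had 60.7, 69.8 and 11.1 CPM in supermere, 130.0, 78.7 and 28.7 CPM in exomere, and 35.3, 25.8 and 34.4 CPM in sEV. FPLC supermere lay below FPLC exomere in every library (log2 fold change -4.14, SE 1.17, edgeR adjusted p = 0.00363), and this missed the threshold with TMM factors (adjusted p = 0.363), in DESeq2 (0.219) and on ERV counts (1.0). 3D UC exomere lay below 2D UC exomere in every library (log2 fold change -4.54, SE 1.33, edgeR adjusted p = 0.00986), with adjusted p = 0.0539 without 3D UC exomere C, 0.259 with TMM factors and 0.736 on ERV counts.

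The row LTR7_HERVH, with the same HERV-H internal part and the LTR7 repeat named first, was spread over the pools in another way. It had 9.86, 3.29, 9.44 and 17.9 CPM in Gradient 12, 425.0, 540.0, 228.0 and 101.0 CPM in Gradient 9_10, and 21.4, 13, 26.1 and 24.0 CPM in Gradient 6_7. It rose in Gradient 9_10 against Gradient 6_7 (log2 fold change 3.93, SE 0.89, edgeR adjusted p = 0.000296), where HERVH_LTR7Y had 0.35. On ERV counts its log2 fold change was -1.89 (edgeR adjusted p = 0.207). HERVH, the row of internal sequence alone, had no counts in Gradient 6_7. The 29 lncRNA entries that overlap HERVH_LTR7Y loci on either strand reached at most 0.776 CPM each in Gradient 6_7 and 3.32 CPM together. Many of them, such as TACR3-AS1 and PRANCR, had 0 bases of overlap on the same strand. tRNA made up 0.502% of counts in Gradient 12, 20.9% in Gradient 9_10 and 23.1% in Gradient 6_7, and the histidine tRNA averaged 13.2, 448.0 and 581.0 CPM there. Elsewhere the histidine tRNA averaged 216 CPM in FPLC supermere and 988 CPM in FPLC exomere, where library A had 3421.8 CPM. It averaged 153, 720 and 516 CPM in 3D UC supermere, exomere and sEV, and 634, 685 and 301 CPM in those of 2D UC. Its part in the HERVH_LTR7Y values was not tested, and the table does not show which of the 98 loci the counts came from.

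**Figure D4:**
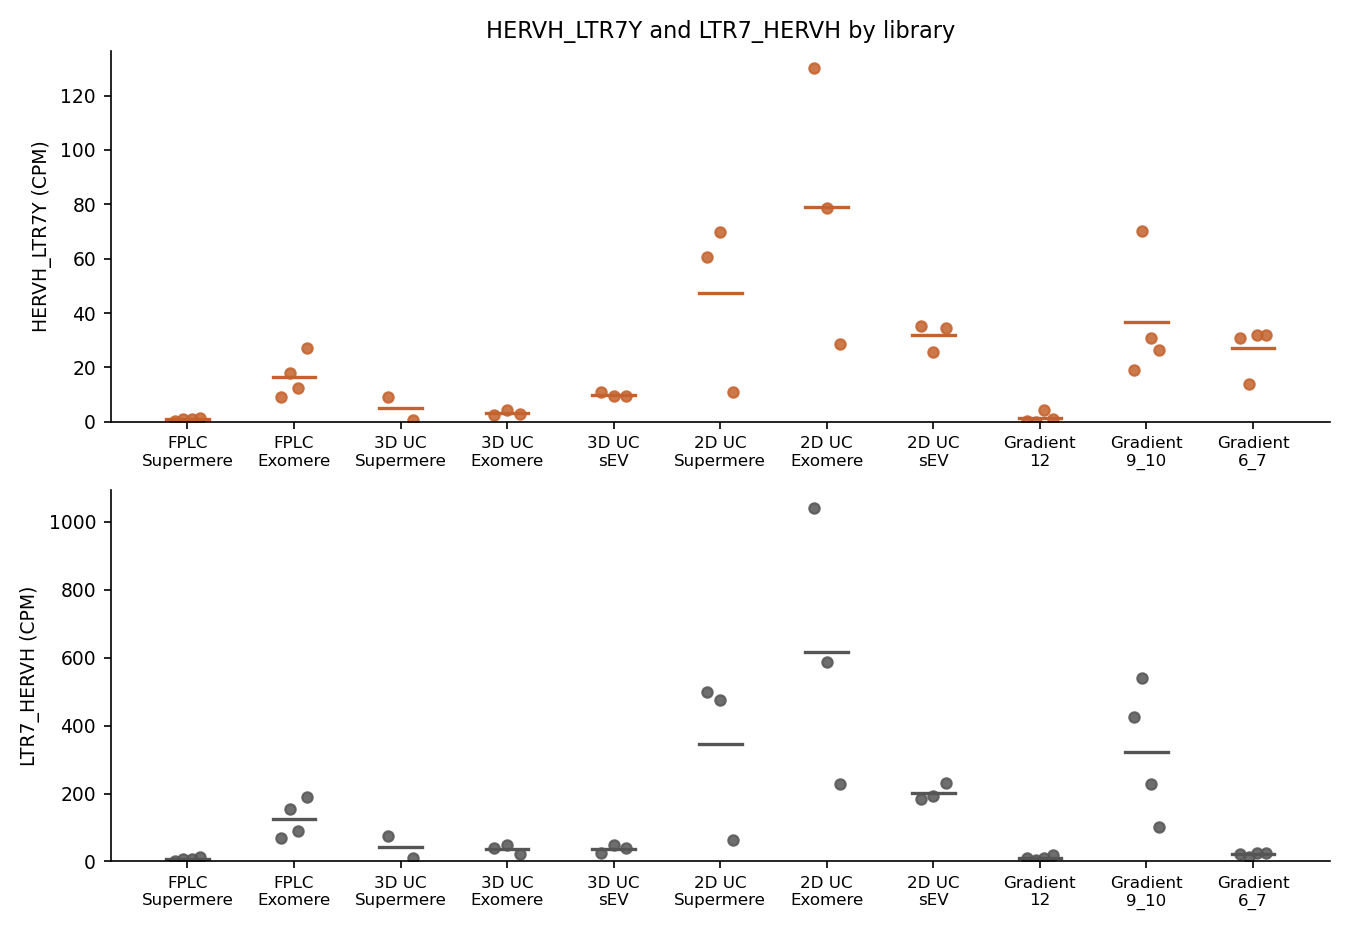
Level (CPM) of HERVH_LTR7Y (top) and LTR7_HERVH (bottom) in each library with more than 10000 counts. Bars are group means. In Gradient 6_7 HERVH_LTR7Y averages 27.2 CPM, near the 36.6 CPM of Gradient 9_10, while LTR7_HERVH averages 21.1 CPM in Gradient 6_7 and 324.0 CPM in Gradient 9_10.

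A pair of smaller class I entries was also called between Gradient 12 and Gradient 6_7. HERV1_I_HERV1_LTRc, a class I entry with 9 loci, had 0.0 CPM in the 4 libraries of Gradient 12, and 4.25, 1.59, 12.4 and 4.22 CPM in Gradient 6_7, where all 4 libraries held it. It was at least 11.3-fold lower in Gradient 12 (edgeR adjusted p = 0.0426). Its mean in Gradient 6_7 was 5.62 CPM, and the next highest group mean was 3.67 CPM, in 2D UC exomere. ERV24B_Prim_LTR24B, a class I entry with 30 loci, had 0.0 CPM in all 4 libraries of Gradient 12, and 6.38, 6.34, 4.66 and 4.14 CPM in Gradient 6_7. It was at least 10.8-fold lower in Gradient 12 (edgeR adjusted p = 0.0205). Its mean of 5.38 CPM in Gradient 6_7 was below those of 2D UC exomere (12.8 CPM), Gradient 9_10 (11.1 CPM) and 3D UC exomere (6.37 CPM). Each bound sets the group at 0 to 3 counts over its summed library totals. Each of these calls missed the threshold without any 1 of the 4 Gradient 12 libraries (adjusted p from 0.113 to 0.15 and from 0.0642 to 0.0916). HERV1_I_HERV1_LTRc also missed it without Gradient 6_7 A, C or D (adjusted p = 0.0543, 0.134 and 0.0556). With HERVH_LTR7Y they were the 3 of 115 HERV entries called in that comparison, all lower, or 2.61%, where 5.39% of all 8979 features tested were called lower. Without Gradient 12 A, B or D no entry was called, and without Gradient 12 C 1 was. The median log2 fold change of the HERV entries was 0.00, as it was for all features.

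By class, class III held over 50% of HERV counts in each library outside Gradient 6_7 except FPLC exomere A (42.5%, with 57.5% class I and no class II counts) and Gradient 12 D (47.0%). FPLC exomere A also had the lowest HERV share of ERV counts, at 5.04%. Class III averaged 59.2 to 68.0% of HERV counts in those 10 groups, class I 25.9 to 35.9% and class II 3.73 to 8.07%. In Gradient 6_7 class I averaged 69.4% ± 3.28, class II 6.63% ± 2.96 and class III 24.0% ± 2.90 (SD, n = 4). HERVH_LTR7Y is itself class I: without it class I averaged 47.6% ± 6.05 (38.7 to 51.4%) and class III 41.0% ± 4.24 in Gradient 6_7 (SD, n = 4), and class I averaged 24.4 to 33.0% in the other groups. By library the class I ranges overlapped, with 53.8% in FPLC exomere A and 40.0% in 3D UC supermere B. The Gradient 6_7 shares without that entry rest on 35 to 107 HERV counts per library. Over all groups, class I entries had 19.6 CPM per Mb, class II 14.2 and class III 20.2.

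Among the internal rows of well-known families, the level per length ran from 12.3 to 24.6 CPM per Mb. The class I rows had 24.6 CPM per Mb for HERVH, 18.3 for HERV9, 15.2 for HERVE, 14.8 for HERV17 and 12.7 for HERV3. HERV17 is the HERV-W family, a copy of which encodes the placental fusion protein syncytin-1, and HERV3 has a copy with an intact env gene that is active in placenta. The class II row HERVK, of the youngest human group, had 12.3 CPM per Mb, and the class III rows had 20.9 for ERVL-E, 20.9 for HERV16 and 15.4 for HERVL. ERVL-E averaged 5.02 CPM in FPLC supermere, 53.8 in FPLC exomere, 4.95, 19.1 and 15.6 in 3D UC supermere, exomere and sEV, 182.0, 256.0 and 65.7 in 2D UC supermere, exomere and sEV, and 3.5, 273.0 and 2.05 in Gradient 12, 9_10 and 6_7. HERV9 had its highest group means at 45.1 CPM in 2D UC exomere, 31.9 CPM in Gradient 9_10 and 24.9 CPM in 2D UC supermere. HERVK was scarce: it averaged 2.3 CPM in 2D UC supermere, 0.824 in 2D UC exomere and 1.21 in 2D UC sEV. In the 3D groups HERVK averaged at most 0.413 CPM, in 3D UC exomere, where exomere B alone held it. HERVK had 0 counts in every library of FPLC supermere and of the 3 gradient pools. Those zeros allow up to 0.0975 CPM in FPLC supermere, and 0.499, 3.45 and 0.376 CPM in Gradient 12, 9_10 and 6_7, for counting error only.

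In 2D culture the comparison of fractions asked whether particles and vesicles carry different RNA. Here and below each HERV median stands beside that of all features, because the scaling moved the whole table: relative to library totals, TMM factors shifted the all-feature median (log2) by -2.61 to 2.50 over the 12 comparisons, and ERV counts by -5.32 to 3.36. The summed HERV level was 3.77 times as high in exomere as in sEV, with ranges that did not overlap, and 2.4 times as high in supermere, with ranges that did. The rest of the ERV class had ratios of 3.79 and 2.31. Over the 115 entries the median log2 fold change was 1.99 for exomere against sEV, beside 1.82 over all features, and 1.26 for supermere against sEV, beside 1.12. Of the 115 entries 1 was called higher in exomere and none lower, while 1.12% of all features were called higher and 3.12% lower (edgeR on library totals). It was HERVL32, a class III entry of 24 loci, with 6.75, 4.13 and 4.21 CPM in 2D UC exomere and 0.0 CPM in the 3 libraries of 2D UC sEV. HERVL32 was at least 66.1-fold higher in exomere (edgeR adjusted p = 0.0317). The call missed the threshold without any 1 of the 6 libraries (adjusted p from 0.0582 to 0.169) and in DESeq2 (adjusted p = 0.458), which called 0 of the entries, with 0 at an unadjusted p under 0.05. Fitted on the 2 groups alone, edgeR called 39 of the 108 entries then tested, all higher, where 19.1% of all features were called higher and 6.70% lower. In supermere against sEV, edgeR called 0 of 115 entries, with 6 at an unadjusted p under 0.05, and DESeq2 called 0, with 0 at an unadjusted p under 0.05; of all features 1.40% were called higher and 4.52% lower.

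In 3D culture the summed HERV level was 1.28 times as high in exomere as in sEV, and 0.581 times as high in supermere, both with ranges that overlapped. The median log2 fold change was 0.15 for exomere, beside -0.32 over all features, and -1.79 for supermere, beside -2.46. With entries at 0 in 1 group set at their bound, the supermere medians were -0.4 and -0.87. edgeR called 0 of 115 entries in exomere against sEV, with 11 at an unadjusted p under 0.05, where 0.111% of all features were called higher and 4.87% lower. DESeq2 called 1 of the entries there, and without 3D UC exomere A edgeR also called 1. In supermere against sEV edgeR called 0, with 16 at an unadjusted p under 0.05, where 0.0557% of all features were called higher and 3.98% lower, and DESeq2 called 3, all lower. The class III entry HERVL18 had 5.62, 2.28 and 8.85 CPM in 3D UC exomere and 0.0 CPM in the 3 sEV libraries (edgeR adjusted p = 0.0535). It passed with TMM factors (adjusted p = 0.0222) and is named after its values were seen. Whether the fraction effect itself differed between cultures was tested as an interaction: edgeR called 0 of 115 entries for exomere, with 11 at an unadjusted p under 0.05, and 0 for supermere, with 17. Of all features 0.846% and 1.20% were called.

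Between cultures, HERV levels were lower in 3D than in 2D in each UC fraction, with ranges that did not overlap. CPM is relative to a library's own total, so neither the number of particles nor the RNA per particle is measured. Y RNA averaged 87.0% of counts in 3D UC supermere and 75.3% in 3D UC exomere, against 4.53% in 2D UC supermere and 9.33% in 2D UC exomere, and its part in the lower HERV level was not tested. The labels do not say which libraries were prepared or sequenced together, so a batch of that kind cannot be told apart from culture, or from isolation method in FPLC against UC. The ratio of mean HERV levels, 3D over 2D, was 0.235 for sEV, 0.0797 for exomere and 0.0568 for supermere, beside 0.258, 0.0717 and 0.0647 for the rest of the ERV class. For sEV, edgeR called 0 of 115 entries, with 18 at an unadjusted p under 0.05, where 0.735% of all features were called higher and 0.0780% lower. DESeq2 called 0, with 5 at an unadjusted p under 0.05. Fitted on the 2 groups alone, edgeR called 38 of the 66 entries then tested, all lower, where 28.8% of all features were called lower and 11.4% higher. The median log2 fold change was -2.08, beside -1.68 over all features.

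For exomere, 66 of 115 entries were called lower in 3D and none higher, or 57.4%, where 48.6% of all 8979 features were called lower and 0.913% higher (edgeR on library totals). Their median log2 fold change was -4.04, beside -4.27 over all features. By class, 27 of 50 class I, 8 of 18 class II and 31 of 47 class III entries were called. The class III entry ERVL_MLT2B2 had 0.0 CPM in the 3 libraries of 3D UC exomere and 14.2, 14.8 and 10.7 CPM in 2D UC exomere, at least 134.0-fold lower in 3D (edgeR adjusted p = 0.00266). The class II entry HERVK22_LTR22C0, of HERV-K type with an LTR22 repeat, had 0.0 CPM in 3D and 26.8, 18.4 and 4.66 CPM in 2D. It was at least 169.0-fold lower in 3D (edgeR adjusted p = 0.00378). The other large falls by fitted fold change were ERVL-E_MLT2E, ERV24_Prim_LTR24 and ERV3-16A3_LTR_ERV3-16A3_I, with group means of 0.0, 0.0 and 0.0239 CPM in 3D and 11.1, 7.63 and 16.6 CPM in 2D. The number called was 27 without 2D UC exomere A, 27 without 3D UC exomere B and 10 without 3D UC exomere C. With TMM factors 3 entries were called, in DESeq2 8, and on ERV counts 1, all lower, where 0.535% of all features were lower on ERV counts and 5.84% higher.

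For supermere, 18 of 115 entries were called lower in 3D and none higher, or 15.7%, where 7.47% of all features were called lower and 0.846% higher. The 115 entries had a median log2 fold change of -5.8, beside -5.56 over all features, or -3.24 beside -2.31 with entries at 0 set at their bound. The 18 were 4 of 50 class I, 3 of 18 class II and 11 of 47 class III entries. HERVL_MLT2A2, a class III entry, had 0.0 CPM in both 3D libraries and 35.0, 60.4 and 8.28 CPM in 2D UC supermere, at least 71.5-fold lower in 3D (edgeR adjusted p = 0.00763). ERVL-E_LTR16E2 had 0.0 CPM in 3D and 30.9, 47.6 and 9.18 CPM in 2D (edgeR adjusted p = 0.00684). HERVL_MLT2B3, ERV3-16A3_I_LTR16B2 and HERV9_LTR12F made up the 5 largest falls, with means of 29.8, 18.8 and 18.4 CPM in 2D. The number called was 8 without 2D UC supermere A, 5 without 2D UC supermere B and 0 without either 3D library, so these calls rest on both. With TMM factors and on ERV counts edgeR called 0, with 21 and 7 at an unadjusted p under 0.05; on ERV counts 2.87% of all features were called higher and 0.167% lower.

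Between FPLC fractions, the summed HERV level in supermere was 0.0863 times that in exomere, with ranges that did not overlap, beside 0.0686 for the rest of the ERV class. Of the 115 entries 73 were called lower in supermere and none higher, or 63.5%, where 48.0% of all features were called lower and 0.234% higher. The share was 64.2% for the rest of the ERV class. The median log2 fold change was -3.91, beside -3.77 over all features. By class, 28 of 50 class I, 11 of 18 class II and 34 of 47 class III entries were called. The largest fitted falls were at low levels. ERVL-E_MLT2E, a class III entry, had 0.0 CPM in FPLC supermere and 20.2, 0.0, 0.0 and 7.03 CPM in FPLC exomere, so the ranges met at 0 (edgeR adjusted p = 0.000734). ERVL-E_LTR41, HERVFH21, HERVL74 and ERVL_THE1C, the next 4, averaged at most 0.0137 CPM in supermere and 3.28, 3.13, 2.8 and 2.36 CPM in exomere, also with ranges that met at 0. HERVL74 rested on exomere B, and without that library its log2 fold change was 0.0. The number called was 47 without FPLC exomere D, 37 without FPLC supermere A and 40 without FPLC supermere C. With TMM factors and on ERV counts 1 entry was called lower, where on ERV counts 2.67% of all features were lower and 4.30% higher. DESeq2 called 0, with 5 at an unadjusted p under 0.05.

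Set against UC of the same medium, FPLC exomere had 2.71 times the HERV level of 3D UC exomere, with ranges that overlapped. Of the entries 8 of 115 were called higher and none lower, or 6.96%, where 10.6% of all features were called higher and 0.691% lower. Their median log2 fold change was 1.74, beside 1.85 over all features. ERVL_MLT2B2 had 0.0, 8.96, 1.72 and 3.93 CPM in FPLC exomere and 0.0 CPM in the 3 libraries of 3D UC exomere, at least 37.1-fold higher (edgeR adjusted p = 0.0105). ERV3-16A3_LTR_ERV3-16A3_I had 0.0, 11.5, 3.65 and 5.93 CPM in FPLC exomere and 0.0, 0.0717 and 0.0 CPM in 3D UC exomere (edgeR adjusted p = 0.0214). ERVL-E_MLT2E, HERVK_LTR5 and HERVL40_LTR40A1, the other 3 of the 5 largest, averaged 6.8, 3.39 and 2.34 CPM in FPLC exomere and 0.0 CPM in UC. ERVL-E_MLT2E had counts in FPLC exomere A and D alone, at 20.2 and 7.03 CPM. HERVK_LTR5 had 12.9 CPM in library D and at most 0.636 CPM in the others, and HERVL40_LTR40A1 had 8.48 CPM in library B and at most 0.859 CPM in the others, so that 1 library carried each of these means. Without library B, HERVL40_LTR40A1 missed the threshold (edgeR adjusted p = 0.144). The number called was 0 without 3D UC exomere B, 1 without 3D UC exomere C and 4 without FPLC exomere D. With TMM factors 2 entries were higher and 1 lower, and on ERV counts 2 were higher and 2 lower, where 4.09% of all features were higher and 3.34% lower. For supermere the HERV level with FPLC was 0.515 times that with UC, with ranges that overlapped. There edgeR called 0 of 115 entries, with 13 at an unadjusted p under 0.05, and DESeq2 called 1; of all features 0.0780% were called higher and 0.390% lower.

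In the gradient, pool 9_10 had 28.0 times the summed HERV level of pool 6_7, beside 67.4 times for the rest of the ERV class. Of the 115 entries 72 were called higher in pool 9_10 and none lower, or 62.6%, where 42.3% of all features were called higher and 0.134% lower. The median log2 fold change was 6.06, beside 5.32 over all features and 6.8 for the rest of the ERV class, or 4.65, 3.44 and 4.68 with entries at 0 set at their bound. By class, 31 of 50 class I, 5 of 18 class II and 36 of 47 class III entries rose. The LTR-only entry ERV3-16A3_LTR had 26.5, 71.2, 0.0 and 21.5 CPM in pool 9_10 and 0.0 CPM in the 4 libraries of pool 6_7, at least 79.3-fold higher (edgeR adjusted p = 9.03e-05). ERVL-B4_MLT2B4, of class III, had 16.3, 66.7, 0.0 and 5.38 CPM in pool 9_10 and 0.0 CPM in pool 6_7. ERV3-16A3_I_ERV3-16A3_LTR, ERVL_MLT2B2 and HERVS71_LTR6B, the next 3, averaged 20.8, 21.4 and 18.5 CPM in pool 9_10, also against 0.0 CPM, with at least 1 library of pool 9_10 at 0. The largest class III entries were above 0 in every library of pool 9_10. ERVL-E had 267.0, 498.0, 154.0 and 173.0 CPM there and 0.0, 1.85, 4.66 and 1.68 CPM in pool 6_7. HERVL_MLT2A1 had 213.0, 426.0, 131.0 and 75.4 CPM there and 3.19, 0.0, 2.33 and 2.59 CPM in pool 6_7. Without Gradient 9_10 A the number called was 47, with TMM factors 8 and in DESeq2 25, of which 1 was lower. On ERV counts 0 entries were higher and 5 lower, where 0.223% of all features were higher and 14.2% lower. The 5 were HERVH_LTR7Y, HERV1_I_HERV1_LTRc, ERV24B_Prim_LTR24B, HERVK13_LTR13 and HERVK13_LTR13_v.

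**Figure D5:**
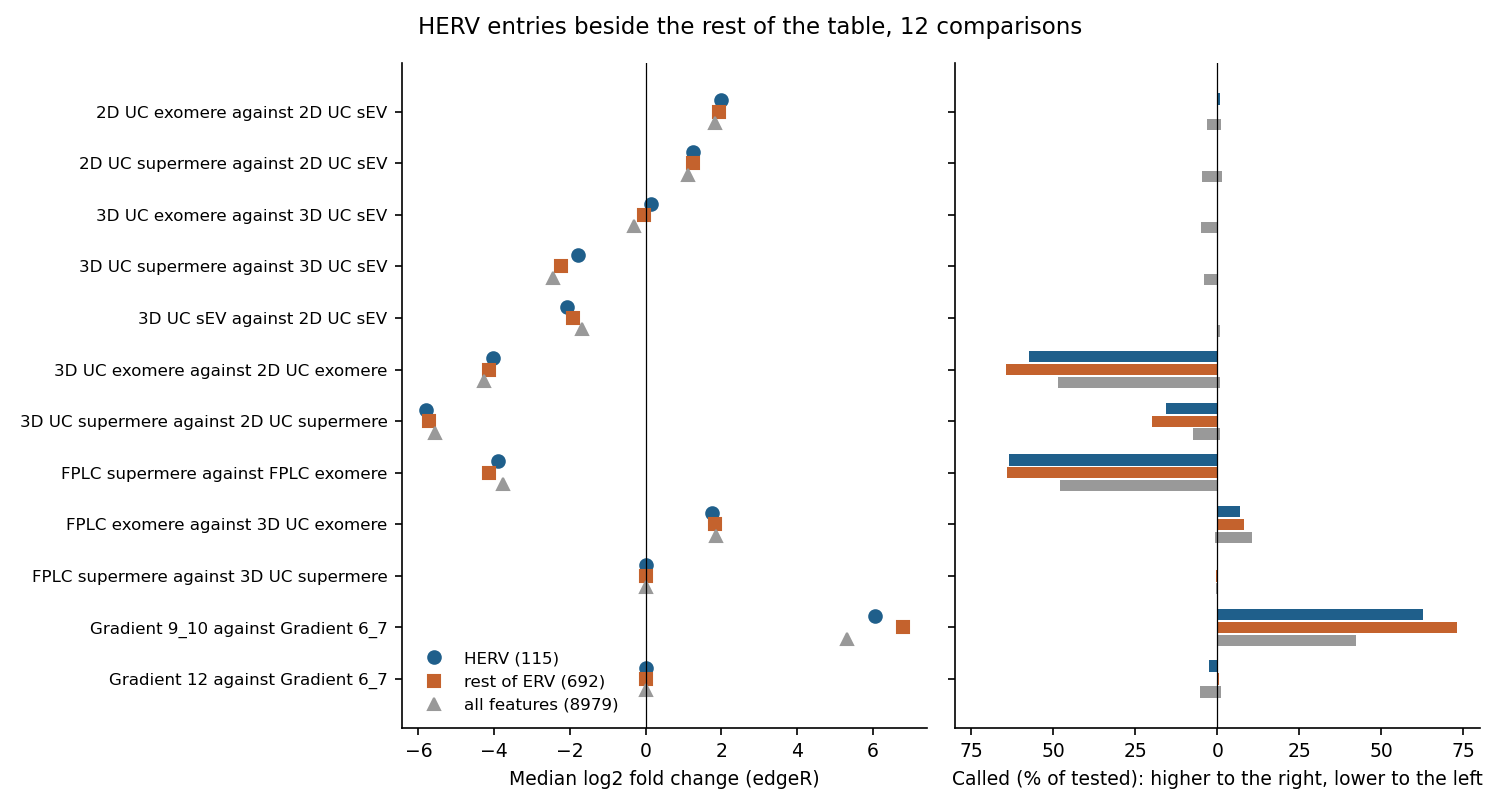
For each of the 12 comparisons, the median log2 fold change from edgeR (left) and the percent of tested features called at an adjusted p below 0.05 (right, higher to the right of 0 and lower to the left), for the 115 HERV entries, the 692 other ERV entries and all 8979 features. The HERV medians run from -5.8, beside -5.56 for all features, to 6.06, beside 5.32, and in 3D UC exomere against sEV the signs differ (0.15 beside -0.32).

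Rows named first by an LTR that flanks HERV internal sequence, such as LTR2, LTR7 and LTR12, were followed beside the HERV entries. Some of these rows hold internal sequence as well, LTR7_HERVH among them. Of the 154 tested, 98 were called lower in 3D against 2D exomere, 18 in 3D against 2D supermere and 91 in FPLC supermere against exomere, and 109 were called higher in Gradient 9_10 against 6_7. As shares these are 63.6%, 11.7%, 59.1% and 70.8%, beside 57.4%, 15.7%, 63.5% and 62.6% of the HERV entries. Of all features 48.6%, 7.47%, 48.0% and 42.3% were called in the same directions, and the differences were not tested.

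For 19 entries the table lists 1 locus, and 4 of these passed the filter on low counts. The listed locus does not place their reads with certainty, because how reads were divided between copies or rows is not given. HERV-Fc1_HERV-Fc1_LTR3, for example, had 55.6 counts in all, which is not a whole number. HERV-Fc2_LTR_HERV-Fc2, a class I copy at X:97841484-97849480 (GRCh38, plus strand), overlaps an annotated exon. It had 12.5, 0.0 and 1.75 CPM in 2D UC exomere and 0.465, 0.0 and 2.82 CPM in 2D UC sEV. It was at 0 in every gradient and 3D UC library. HERV-Fc1_HERV-Fc1_LTR3 at 2:83873934-83879513 (minus strand) lies between genes and reached 5.06 CPM in FPLC exomere D. ERVL-E_LTR16E2_MLT2E at 9:38243959-38250820 (minus strand) lies between genes and had 4.89, 2.39 and 0.228 CPM in 2D UC exomere. HERVL18_LTR18A_LTR18C at 11:21810799-21817534 (plus strand) lies in an intron and reached 12.3 CPM in Gradient 9_10 C. They had counts in 6 to 9 of the 37 libraries. HERV-Fc2_LTR_HERV-Fc2 was called lower in 3D against 2D exomere, at least 48.1-fold (edgeR adjusted p = 0.0197). The other 3 were called lower in FPLC supermere against FPLC exomere (edgeR adjusted p = 0.0391 for HERVL18_LTR18A_LTR18C, 0.0302 for ERVL-E_LTR16E2_MLT2E and 0.0363 for HERV-Fc1_HERV-Fc1_LTR3), each with counts in 1 of the 4 exomere libraries. HERVL18_LTR18A_LTR18C was also called higher in Gradient 9_10 against Gradient 6_7 (edgeR adjusted p = 0.043), with 6.12, 0.0, 12.3 and 0.0 CPM in pool 9_10 and 0.0 CPM in pool 6_7. The ranges met at 0 in each of these 5 calls.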

How the data were processed

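Small RNA libraries from 11 groups of DiFi material were compared. The authors deposited expected counts per feature, not scaled between libraries. Per the submitters' processing notes, cutadapt 4.5, FastQC 0.12.1 and Bowtie 1.3.1 were used with build GRCh38.p13. The counting tool and annotation are not given in the sources used here. Of all values 6.71% were not whole (tolerance 1e-06) and values were rounded for tests.

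Tests were two-sided, by the robust quasi-likelihood fit of edgeR 4.0.16 (glmQLFit, glmQLFTest) under R 4.3.3, in 1 fit of 37 libraries with 26 residual degrees of freedom. Libraries under 10000 counts were left out (3D UC supermere A). Scaling was by library totals; TMM factors ran from 0.067 to 8.99. filterByExpr with a minimum count of 10 kept 8979 features, over which p-values were Benjamini-Hochberg adjusted, with a threshold of 0.05. DESeq2 1.42.0 (poscounts), TMM, no filter, all 38 libraries, a replicate block, the 2 groups alone, leaving out each library and ERV class totals were alternatives. Code was tested on simulated data. Folds against a group at 0 are bounds against 3 counts over the group total. No molecular identifiers were used in the counts as far as the sources say, and PCR copies are not independent, so bounds and intervals describe counting error alone. bedtools 2.31.1 set loci against the GENCODE annotation.

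Named entries are the 10 with the highest mean CPM, the 5 largest changes each way among those called per comparison, and 9 family rows (HERVK, HERVH, HERV17, HERV9, HERVE, HERVL, ERVL-E, HERV16 and HERV3). HERVH_LTR7Y was followed beyond this rule; LTR7_HERVH, HERVL18, HERVK13_LTR13 and the entries of 1 locus are named after their values were seen. The entries and lists were chosen with earlier results of these data known.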

Additional observations from a re-analysis of the deposited data

Results flagged for a closer look

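In 97 sets of 4 libraries, 1 library stood far from the other 3 in 20 sets, by Dixon's criterion at the 95% level, where chance flags about 1 in 20 for continuous values. That rate does not hold for sparse counts: in 14 of the 20 sets a library among the other 3 was at 0, and in 5 all 3 were at 0, which fixes the criterion at its maximum. HERVH_LTR7Y took 8.03% of HERV counts in FPLC exomere A, and 2.78 to 3.35% in the others. The same entry had 13.8 CPM in Gradient 6_7 B, and 30.9 to 32.1 CPM in the others.

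FPLC supermere D was high for 4 entries. ERVL-E had 15.9 CPM there (others 0.386 to 2.77 CPM), ERVL-B4 had 6.09 CPM (0.463 to 1.02), HERV16 had 4.73 CPM (0.092 to 0.365) and HERV9 had 1.56 CPM (0.0 to 0.0772). FPLC exomere D was high for ERVL-E_LTR41 at 11.8 CPM (0.0 to 1.29), HERV17 at 5.06 CPM (0.0 in the others) and HERVK_LTR5 at 12.9 CPM (0.0 to 0.636). FPLC exomere B was high for HERVL40_LTR40A1 at 8.48 CPM (0.0 to 0.859) and HERVL74 at 11.1 CPM (0.0 to 0.107).

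Gradient 6_7 C was high for ERVL-B4 at 6.99 CPM (0.0 in the others), ERVL-E_LTR16E2 at 7.76 CPM (1.06 to 2.11) and HERV3 at 6.21 CPM (0.0 in the others). Gradient 6_7 A was high for HERV17 at 3.19 CPM (0.0 to 0.233). Gradient 12 A had 4.88 CPM of HERV16 and Gradient 12 C had 2.25 CPM of HERV17, with 0.0 CPM in the others. Gradient 9_10 B was high for ERVL_MLT2B2 at 71.2 CPM (0.0 to 9.18), HERV17 at 35.6 CPM (0.0 to 4.69) and HERVH at 48.9 CPM (0.0 to 1.43).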

How the results depend on the processing

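The number of HERV entries called moved with the scaling, the filter and the libraries fitted. In 3D against 2D exomere, 66 entries on library totals became 3 with TMM factors, 8 in DESeq2, 23 with no filter, 39 with the 2 groups alone and 1 on ERV class totals. In 3D against 2D supermere, 18 became 0 with TMM factors, 11 in DESeq2, 3 with no filter, 30 with the 2 groups alone and 0 on ERV class totals. In FPLC supermere against exomere, 73 became 1, 0, 40, 11 and 1 in the same order, and in FPLC against UC exomere 8 became 3, 5, 2, 0 and 4, with 3 under the replicate block. In Gradient 9_10 against 6_7, 72 became 8 with TMM factors, 25 in DESeq2, 7 with the 2 groups alone and 5 on ERV class totals, all 5 lower. In Gradient 12 against 6_7, 3 became 6 in DESeq2, 1 with no filter and 1 with the 2 groups alone. Of those in DESeq2, HERVH_LTR7Y and ERV24B_Prim_LTR24B were lower in Gradient 12. HERVIP10FH_LTR10F, HERV35I, HERV9_LTR12F and HERVL_MLT2A1 were higher there (log2 fold change 4.63, 4.41, 4.28 and 2.27). On ERV class totals the 3 stayed lower, and HERV9NC_LTR12D was called lower as well (edgeR adjusted p = 0.0187). In 2D exomere against sEV, 1 became 0 in DESeq2, 0 with no filter (15 at an unadjusted p under 0.05) and 39 with the 2 groups alone. Where 0 was called on library totals, 2D supermere against sEV gave 1 on ERV class totals. 3D exomere against sEV gave 1 each with TMM factors, in DESeq2, with all 38 libraries and under the replicate block, and 4 on ERV class totals. 3D supermere against sEV gave 3 in DESeq2, 2 with the 2 groups alone and 1 on ERV class totals. 3D against 2D sEV gave 38 with the 2 groups alone, and FPLC against UC supermere gave 1 in DESeq2. Leaving out 1 library gave 10 to 63 for 3D against 2D exomere, 0 to 27 for supermere, 37 to 82 for FPLC supermere against exomere, 0 to 11 for FPLC against UC exomere, 47 to 72 for Gradient 9_10 and 0 to 3 for Gradient 12 against 6_7, 0 to 1 for 3D exomere against sEV, and 0 for the other comparisons, 2D exomere against sEV included. With the 2 groups alone, 13 entries were tested in FPLC supermere against exomere, 36 in FPLC against UC exomere (4 at an unadjusted p under 0.05) and 8 in Gradient 9_10, in place of 115. Other causes were not tested.

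HERVH_LTR7Y in Gradient 9_10 against 6_7 changed sign, from a log2 fold change of 0.35 on library totals to -2.48 in DESeq2 and -5.32 on ERV class totals. The all-feature median moved from 5.32 to 1.57 and 0.0 in the same order. Same-letter libraries were not treated as paired in the main fit. Their deviations correlated from -0.16 to 0.18. At most 4 of 6 or 4 of 8 libraries lay closest to their own letter, except 3 of 4 in 3D against 2D supermere. The median correlation was higher for the same letter than for different letters, except in 2D supermere against sEV and FPLC against UC exomere. A weak pairing is therefore not excluded. The replicate block changed 2 of 40 calls of named entries, HERVK_LTR5 and HERVL40_LTR40A1 in FPLC against UC exomere. Depth limits pool 9_10 most, where 0 counts allow up to 3.45 CPM.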
